A study of Mus musculus with 9 samples.

Results

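The genes described here are 10 mouse genes of NF-kB signalling, namely the cytokines Il1b, Tnf and Il18, the chemokines Cxcl1, Cxcl2, Cxcl5 and Ccl20, the feedback inhibitors Nfkbia and Tnfaip3, and the ubiquitin ligase Peli1. They were listed by name with earlier results of these data known, among them the call of Peli1, which is therefore no independent evidence. Each of the 10 was represented by 1 probeset of the array, out of 19938 genes with a probeset of 1 gene symbol. Of the 10, 8 had a mean above the filter for dim genes (4.716 log2, the 25th percentile of gene means) and were among the 14953 genes tested, while Cxcl2 and Cxcl5 lay below it. Expression was measured in epithelium scraped from the colon of C57BL/6J males, which are inbred mice, at 9 to 11 weeks of age. All mice, controls included, first ate a high-fat diet with 40% of its energy from fat for 1 week. Heme mice then ate this diet with heme, the iron pigment of red meat, added at 0.2 µmol per g of food until day 2, 4, 7 or 14, and control mice stayed on the plain high-fat diet until day 0, 2, 4, 7 or 14. RNA of 4 mice was pooled for each diet and day (3 mice for the control pool of day 2) and hybridised to 1 array, which gave 4 heme pools and 5 control pools, each of them a single pool of its diet and day.

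NF-kB is a family of transcription factors held in the cytoplasm by inhibitor proteins. When receptors for microbial products, interleukin-1 or tumour necrosis factor are engaged, adaptor proteins and ubiquitin ligases activate the IkB kinase complex, the inhibitor is degraded, and NF-kB enters the nucleus, where it switches on cytokines, chemokines that attract neutrophils and lymphocytes, and its own inhibitors. In the colon the epithelium makes IL-18 without stimulation, whereas IL-1 beta and tumour necrosis factor come mostly from myeloid cells.

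Of the 8 genes tested, Peli1 alone passed the test of the difference between the diets, by a small fall of 0.26 log2 whose call depended on single pools. Peli1 encodes Pellino 1, a ubiquitin ligase that takes part in signalling from Toll-like and interleukin-1 receptors. The tested cytokines, chemokines and feedback inhibitors passed no test at an adjusted p under 0.05 (limma, Benjamini-Hochberg over all genes tested). Over all genes 0.0736% were called lower and 0.595% higher, and 1 of the 8 tested members was called lower and 0 higher. The median log2 difference was 0.033 over these 8 genes and -0.002 over all genes tested.

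All values are log2 expression as deposited. The pools of a diet differ in day, so each SD and p-value measures the spread between pools of different days and not between animals. The arrays are bulk measurements, in which fewer cells of a type and less RNA per cell cannot be told apart. Markers of colon epithelium had means between 11.63 and 11.66 log2 in the heme pools and between 11.60 and 11.64 in the control pools. Both pools of day 2 stood apart, with a mean of 9.57 (heme) and 9.01 (control) for 9 genes of the exocrine pancreas, against 5.59 to 5.75 in the other heme pools and 5.63 to 5.77 in the other control pools. Smooth muscle markers ranged from 7.11 to 8.98 in the heme pools and from 7.19 to 9.59 in the control pools.

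**Figure D1:**
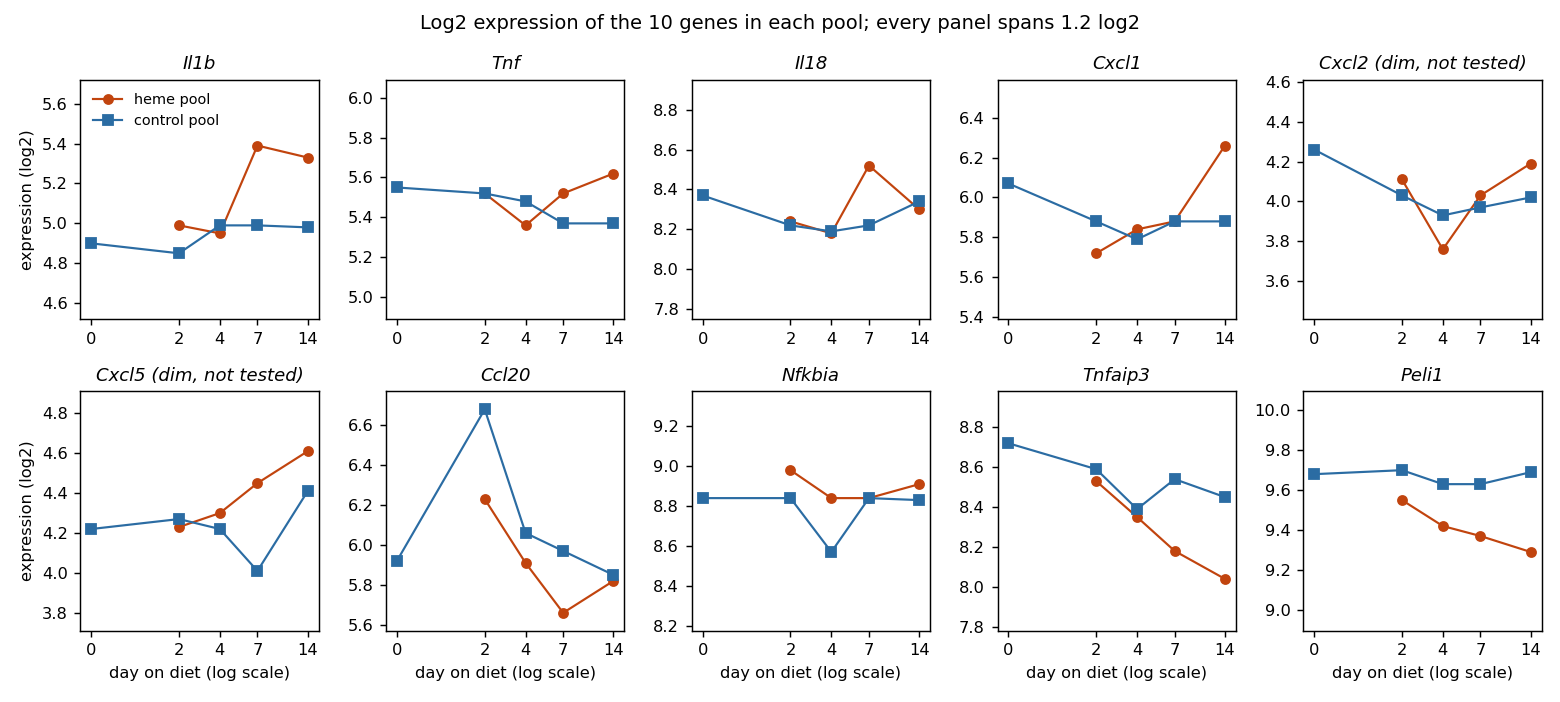
Log2 expression (vertical axis) of the 10 genes by day on diet (horizontal axis, log scale of day + 1), with each point 1 pool, circles for heme and squares for control. Peli1 lies lower in every heme pool than in any control pool, and Il1b is above all control pools on days 7 and 14 of heme.

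Peli1 (probeset 10374485) had 9.55, 9.42, 9.37 and 9.29 log2 in the heme pools of days 2, 4, 7 and 14, against 9.68, 9.70, 9.63, 9.63 and 9.69 in the control pools of days 0, 2, 4, 7 and 14. The heme pools lay below every control pool, and among them the level was lower at each later day. Such a separation, in this direction, was found in 2.33% of all genes tested, and Peli1 was the only one of the 8 tested members with separate groups. Heme pools all above the control pools were found for 0 members and 3.26% of all genes. The means were 9.41 ± 0.11 in heme (SD, n = 4) and 9.67 ± 0.03 in control (SD, n = 5). Peli1 fell by 0.26 log2, to 0.836 of the control level (SE 0.05, 95% interval -0.37 to -0.15, limma adjusted p = 0.0466). It stood at place 99 of the 100 genes called, just inside the threshold. The size of the difference was common, since 6.06% of all genes tested differed by at least as much, and the SE was among the lower 27.4% of genes. With the day as a replicate block, a fit that leaves out the control pool of day 0, the call was lost (-0.255, limma adjusted p = 0.0923). Without that pool and without the block the difference was also -0.255 (limma adjusted p = 0.133), so the loss cannot be put down to the block. The call was lost in 8 of 9 fits that left out 1 pool, with adjusted p up to 0.169. It was kept only when the day 2 heme pool was left out (-0.306, adjusted p = 0.00578).

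The region before the start of each gene was read from RefSeq promoter windows (build GRCm38.p6), of which 250 bases upstream are used. The kappa-B consensus, the 10-letter pattern that NF-kB dimers bind, was searched on both strands. It was present in the windows of 5 of the 9 members that have one, against 3.9% of all 32851 windows. The 5 were Cxcl1, Cxcl2, Ccl20, Nfkbia and Tnfaip3, and no match was found upstream of Il1b, Tnf, Il18 or Peli1. The member share counts genes, over 10 windows, while the 3.9% counts windows. The members were listed as genes of NF-kB signalling, so their share is no independent evidence. The sequences below show the windows of 2 neighbouring chemokine genes with the same match, of both feedback inhibitors, and of Peli1 as the gene that was called. Capitals mark a match, and in Cxcl1 and Cxcl2 the capitals cover 2 overlapping matches on opposite strands.
Cxcl1 (chr5:90890995-90891244, plus strand): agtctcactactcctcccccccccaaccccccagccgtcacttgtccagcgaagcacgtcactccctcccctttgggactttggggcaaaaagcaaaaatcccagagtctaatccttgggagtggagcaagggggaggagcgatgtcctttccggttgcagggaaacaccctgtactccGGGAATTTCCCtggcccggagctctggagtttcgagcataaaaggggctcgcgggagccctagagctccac
Cxcl2 (chr5:90903649-90903898, plus strand): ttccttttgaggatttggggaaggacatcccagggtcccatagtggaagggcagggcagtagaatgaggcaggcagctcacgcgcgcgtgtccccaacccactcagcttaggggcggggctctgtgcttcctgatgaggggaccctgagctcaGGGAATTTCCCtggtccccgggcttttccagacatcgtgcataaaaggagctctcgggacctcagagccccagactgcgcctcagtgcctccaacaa
Nfkbia (chr12:55492648-55492897, minus strand): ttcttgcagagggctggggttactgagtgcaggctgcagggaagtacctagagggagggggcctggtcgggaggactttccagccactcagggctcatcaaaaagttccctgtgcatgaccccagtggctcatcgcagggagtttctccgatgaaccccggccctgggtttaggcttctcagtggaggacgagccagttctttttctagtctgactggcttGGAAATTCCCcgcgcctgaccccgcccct
Tnfaip3 (chr10:19015411-19015660, minus strand): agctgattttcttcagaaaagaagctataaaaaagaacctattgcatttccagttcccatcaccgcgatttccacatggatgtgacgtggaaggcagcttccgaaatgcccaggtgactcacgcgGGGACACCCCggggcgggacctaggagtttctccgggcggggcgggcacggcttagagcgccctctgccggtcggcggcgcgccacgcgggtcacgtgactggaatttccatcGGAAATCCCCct
Peli1 (chr11:21091074-21091323, plus strand): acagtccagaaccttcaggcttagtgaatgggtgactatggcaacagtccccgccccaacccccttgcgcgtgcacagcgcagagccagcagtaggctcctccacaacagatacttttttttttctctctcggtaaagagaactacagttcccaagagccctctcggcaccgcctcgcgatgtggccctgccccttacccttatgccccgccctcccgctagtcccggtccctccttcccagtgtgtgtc
A match is a description of the letters and is no evidence of binding, and its absence says only that these letters are not in this window. For Tnfaip3 RefSeq gives a second start whose window holds no match. None of the tested genes with a match was called between the diets. Nfkbia averaged 0.11 log2 higher in heme, Ccl20 0.19 and Tnfaip3 0.26 log2 lower, and Cxcl1 differed by 0.03. Cxcl2, below the filter, differed by -0.02 when dim genes were kept in the fit. A link between a match and these differences was not tested.

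Tnfaip3, which encodes a ubiquitin-editing enzyme that shuts off NF-kB signalling and is itself induced by it, had a difference as large as that of Peli1 but a wider spread, and did not pass the test. It had 8.53, 8.35, 8.18 and 8.04 log2 in the heme pools of days 2, 4, 7 and 14, against 8.72, 8.59, 8.39, 8.54 and 8.45 in the control pools of days 0, 2, 4, 7 and 14. The heme pools of days 4, 7 and 14 lay below all control pools, and that of day 2 lay within their range. The means were 8.28 ± 0.21 in heme (SD, n = 4) and 8.54 ± 0.13 in control (SD, n = 5). The log2 difference was -0.26 (SE 0.10, 95% interval -0.48 to -0.05, unadjusted p = 0.0224, limma adjusted p = 0.242). An unadjusted p under 0.05 in the lower direction was found for 8.65% of all genes tested.

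Nfkbia encodes IkB alpha, the inhibitor that binds NF-kB in the cytoplasm and is resynthesised as an NF-kB target. It had 8.98, 8.84, 8.84 and 8.91 log2 in the heme pools of days 2, 4, 7 and 14, against 8.84, 8.84, 8.57, 8.84 and 8.83 in the control pools of days 0, 2, 4, 7 and 14. Apart from the control pool of day 4 the values of both diets lay close together, and several were alike to 2 decimals. The means were 8.89 ± 0.06 in heme (SD, n = 4) and 8.78 ± 0.12 in control (SD, n = 5), a log2 difference of 0.11 (SE 0.06, limma adjusted p = 0.379), which was 0.0531 without the control pool of day 4. Its 95% interval, -0.03 to 0.24, allows a heme level of 0.98 to 1.18 times that of control.

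Il1b encodes IL-1 beta, the cytokine that needs cleavage by caspase-1 before release. It had 4.99, 4.95, 5.39 and 5.33 log2 in the heme pools of days 2, 4, 7 and 14, against 4.90, 4.85, 4.99, 4.99 and 4.98 in the control pools of days 0, 2, 4, 7 and 14. The heme pools of days 7 and 14 were above all control pools and those of days 2 and 4 were within their range. The means were 5.16 ± 0.23 in heme (SD, n = 4) and 4.94 ± 0.07 in control (SD, n = 5), a log2 difference of 0.22 (SE 0.10, unadjusted p = 0.0424, limma adjusted p = 0.284), which was 0.148 without the heme pool of day 7. An unadjusted p under 0.05 in the higher direction was found for 8.39% of all genes tested. The control level lay only slightly above the filter, so the values rest on a dim signal.

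Markers of the myeloid cells that make Il1b were read beside it. The 13 macrophage and monocyte markers had pool means of 6.00 to 6.55 log2 in heme and 6.13 to 6.75 in control, with 0 of 13 called in either direction. Of 12 neutrophil markers 5 were tested, with pool means of 6.23 to 6.54 in heme and 6.23 to 6.41 in control and 0 called, and S100a8, Csf3r, Cxcr2, Retnlg, Ngp, Ltf and Mmp8 lay below the filter. The highest neutrophil means among the heme pools were those of days 7 and 14 (6.45 and 6.54). The macrophage and monocyte means of the heme pools were also highest on days 7 and 14. Their highest, 6.55 on day 14, lay below the 6.75 of the control pool of that day. The level of the neutrophil mean was raised by Ly6g, at 10.82 in heme and 10.86 in control. The other tested neutrophil markers had heme means from 4.89 (S100a9) to 5.59 (Elane). S100a9, a calcium-binding protein of neutrophils, had 4.80, 4.57, 5.10 and 5.11 in the heme pools of days 2, 4, 7 and 14, against 4.74, 4.78, 4.92, 4.79 and 4.80 in the control pools of days 0, 2, 4, 7 and 14. S100a9 was named after its values were seen and was dim, with means of 4.89 in heme and 4.81 in control. Its difference between the diets on days 7 and 14 minus that on days 2 and 4 was 0.47 log2, the largest of the 5. The other tested markers had 0.32 (Ly6g), 0.24 (Mpo), 0.15 (Camp) and -0.01 (Elane), and 0 of the 5 were called. The part of the myeloid cells in the Il1b values was not tested.

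Tnf, the gene of tumour necrosis factor, had 5.52, 5.36, 5.52 and 5.62 log2 in the heme pools of days 2, 4, 7 and 14, against 5.55, 5.52, 5.48, 5.37 and 5.37 in the control pools of days 0, 2, 4, 7 and 14. The groups overlapped, and the heme pool of day 14 was the highest of all 9. The log2 difference was 0.05 (SE 0.07, 95% interval -0.10 to 0.20, limma adjusted p = 0.697). It was 0.01 without the heme pool of day 14 and 0.0962 without that of day 4.

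Il18, an IL-1 family cytokine made by colon epithelium, had 8.24, 8.18, 8.52 and 8.30 log2 in the heme pools of days 2, 4, 7 and 14, against 8.37, 8.22, 8.19, 8.22 and 8.34 in the control pools of days 0, 2, 4, 7 and 14. The heme pool of day 7 was above all control pools, and the others were within 0.01 of their range. The log2 difference was 0.04 (SE 0.07, 95% interval -0.12 to 0.19, limma adjusted p = 0.776), and without the heme pool of day 7 it was -0.0306. The interval allows a heme level of 0.923 to 1.14 times that of control.

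Cxcl1, Cxcl2 and Cxcl5 encode chemokines that draw neutrophils through the receptor CXCR2. All 3 genes lie in one cluster on chromosome 5, where Cxcl1 and Cxcl2 are neighbours among protein-coding genes. Cxcl1 had 5.72, 5.84, 5.88 and 6.26 log2 in the heme pools of days 2, 4, 7 and 14, against 6.07, 5.88, 5.79, 5.88 and 5.88 in the control pools of days 0, 2, 4, 7 and 14. The heme pool of day 2 was the lowest and that of day 14 the highest of all 9. Its log2 difference was 0.03 (SE 0.10, 95% interval -0.20 to 0.26, limma adjusted p = 0.903), and it was -0.0859 without the heme pool of day 14.

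The other chemokines of the cluster were dim. Cxcl5 had 4.23, 4.30, 4.45 and 4.61 log2 in the heme pools of days 2, 4, 7 and 14, against 4.22, 4.27, 4.22, 4.01 and 4.41 in the control pools of days 0, 2, 4, 7 and 14. The heme pools of days 7 and 14 were above all control pools. When dim genes were kept in the limma fit, its log2 difference was 0.17 (SE 0.09, adjusted p = 0.413). Cxcl2 had 4.11, 3.76, 4.03 and 4.19 in the heme pools of days 2, 4, 7 and 14, against 4.26, 4.03, 3.93, 3.97 and 4.02 in the control pools of days 0, 2, 4, 7 and 14. The groups overlapped, with the heme pool of day 4 the lowest and the control pool of day 0 the highest of all 9, and in the same fit the difference was -0.02 (SE 0.09, adjusted p = 0.925).

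Ccl20 encodes the chemokine that draws CCR6-bearing lymphocytes and dendritic cells, and is made by the epithelium over lymphoid follicles. It had 6.23, 5.91, 5.66 and 5.82 log2 in the heme pools of days 2, 4, 7 and 14, against 5.92, 6.68, 6.06, 5.97 and 5.85 in the control pools of days 0, 2, 4, 7 and 14. The pools of day 2 were the highest of each diet. The heme pool of day 7 lay below all control pools, and that of day 14 lay just below them. It varied most of the 10 genes, over 1.02 log2, and the log2 difference was -0.19 (SE 0.17, 95% interval -0.57 to 0.19, limma adjusted p = 0.558). This difference was -0.0434 without the control pool of day 2, -0.107 without the heme pool of day 7 and -0.298 without the heme pool of day 2. The 6 other tested markers of lymphoid follicles and their epithelium also had their highest means in the pools of day 2, 5.77 in heme and 5.86 in control, against 5.33 to 5.54 in the other heme pools and 5.47 to 5.62 in the other control pools. These day 2 means rested on Gp2, which is also a protein of pancreatic zymogen granules and had 7.53 in heme and 6.99 in control on day 2. Without Gp2, a mean added after its values were seen, the other 5 markers were lowest on day 2 in each diet, at 5.41 in heme and 5.64 in control, against 5.52 to 5.69 in the other heme pools and 5.67 to 5.87 in the other control pools. The part of these cells in the Ccl20 values was not tested.

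**Figure D2:**
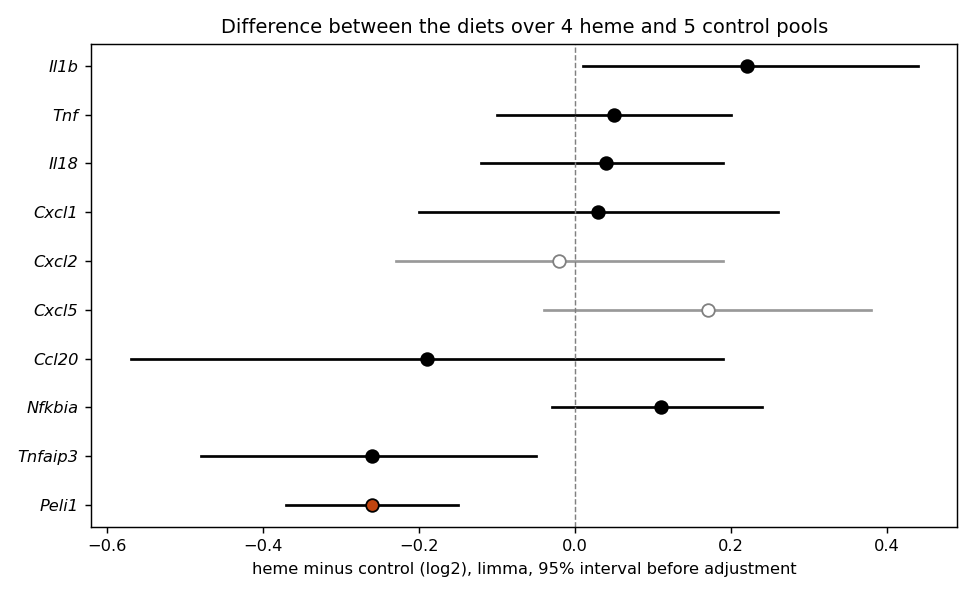
Log2 difference, heme minus control (horizontal axis), for each gene, with points for the limma estimate over 4 heme and 5 control pools and lines for its 95% interval before adjustment. Peli1 is filled in colour as the gene whose groups do not overlap (-0.26), and the dim genes Cxcl2 and Cxcl5 are drawn open from the fit without the filter.

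Each heme pool was also set beside the control pool of the same day, as a description with 1 pool of each diet. Peli1 was lower by 0.15, 0.21, 0.26 and 0.40 log2 on days 2, 4, 7 and 14, Tnfaip3 by 0.06, 0.04, 0.36 and 0.41, and Ccl20 by 0.45, 0.15, 0.31 and 0.03. These were 3 of the 8 tested members below the same day's control on 4 of 4 days, against 12% of all genes tested. Nfkbia was above it on 4 of 4 days, on day 7 by less than 0.01, as were 10.9% of all genes tested. Il1b was 0.14 higher on day 2, 0.04 lower on day 4, and 0.40 and 0.35 higher on days 7 and 14.

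**Figure D3:**
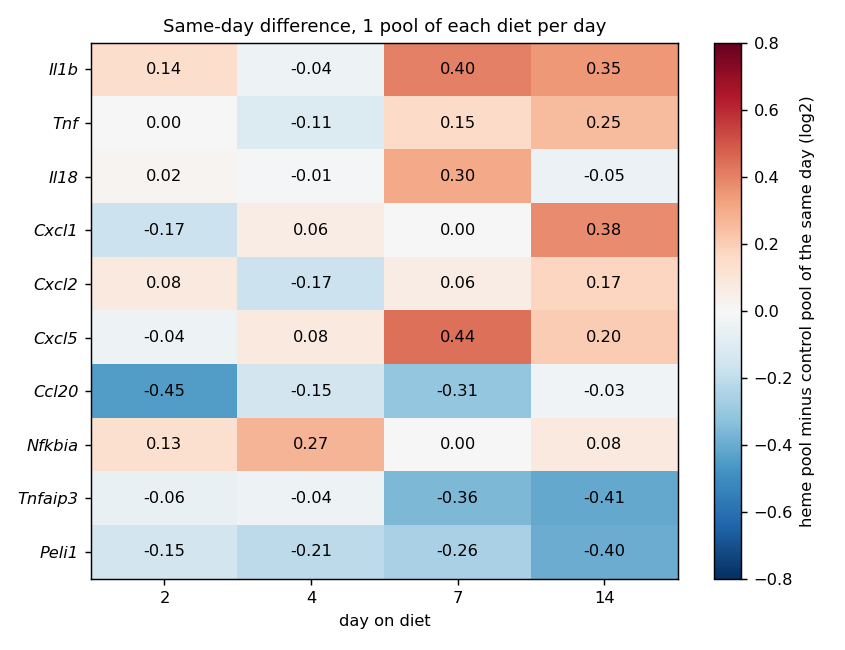
Difference between the heme pool and the control pool of the same day (log2, colour and printed value) for each gene (rows) on each day (columns), 1 pool of each diet per day. Peli1, Tnfaip3 and Ccl20 are negative on every day, and Il1b is near 0 on day 4 and at 0.40 and 0.35 on days 7 and 14.

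Each heme pool was also set against the range of the 5 control pools. In the heme pool of day 14, 3 of the 8 tested members were below all control pools and 4 above, when 34.5% of all genes were below and 32.1% above. In that of day 7, 3 were below and 3 above (Il1b, Il18 and Nfkbia), against 25.2% and 17.9%, with Nfkbia less than 0.01 above. In that of day 4, 4 were below (Tnf, Il18, Tnfaip3 and Peli1) and 0 above, against 14.8% and 17.3%, and Tnf and Il18 lay only 0.01 below. In that of day 2, 2 were below (Cxcl1 and Peli1) and 1 above (Nfkbia), against 17.3% and 19.8%.

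Per its title the study asked which responses to heme are immediate and which are delayed. The difference between diets on days 7 and 14 was therefore set against that on days 2 and 4. No member was called, and neither was any gene (limma, 0% of all genes tested at an adjusted p under 0.05, 990 genes at an unadjusted p under 0.05). Il1b had a mean difference of 0.38 log2 on the late days and 0.05 on the early days, so that late minus early was 0.32 (SE 0.13, unadjusted p = 0.0358, limma adjusted p = 0.74). For Tnfaip3 these means were -0.39 and -0.05, and late minus early was -0.34 (SE 0.13, unadjusted p = 0.0391, limma adjusted p = 0.74). The late means were -0.33 and the early means -0.18 for Peli1 (late minus early -0.15, limma adjusted p = 0.774, and -0.089 without the heme pool of day 2). For Tnf late minus early was 0.26 and for Cxcl1 0.24 (limma adjusted p = 0.774 and 0.792), and the value for Cxcl1 was 0.0539 without the heme pool of day 14 and 0.433 without that of day 7. An unadjusted p under 0.05 was found for 2 of 8 members and 6.62% of all genes.

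A comparison of slopes on log2(day + 1) between the diets, added after the values had been seen, used all 9 pools. It called 0.762% of all genes tested and none of the members. Cxcl1 had the steepest difference, with a heme slope 0.27 log2 per unit above the control slope (SE 0.06, unadjusted p = 0.00203, limma adjusted p = 0.0775). Control slopes ran from day 0 and heme slopes from day 2, as heme has no pool of day 0. The control slope of Cxcl1 was -0.0466, and 0.0136 without the control pool of day 0. Slope differences were not refitted without single pools. For Tnfaip3 the heme slope was 0.15 and for Peli1 0.10 log2 per unit below the control slope (limma adjusted p = 0.14 and 0.103). Unadjusted p-values under 0.05 were found for 1 member in the higher direction, against 7.05% of all genes, and for 2 in the lower direction, against 13.4%.

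On the control diet alone none of the 8 members was called for a slope over days 0 to 14, nor was any gene (0%, with 1073 genes at an unadjusted p under 0.05 in limma). An unadjusted p under 0.05 was found for 1 of 8 members, Tnfaip3, and for 7.18% of all genes. Tnfaip3 had a slope of -0.07 log2 per unit of log2(day + 1) (unadjusted p = 0.0463, limma adjusted p = 0.692). Tnf had one of -0.05 (limma adjusted p = 0.695), and Peli1 held between 9.63 and 9.70 in the 5 control pools.

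Other genes of the pathway were read in 9 lists, which hold 119 tested genes apart from the members. Of these 1 was called lower and 0 higher, or 0.84%, against 0.669% of all genes tested in either direction. An unadjusted p under 0.05 in the lower direction was found for 21 of the 119, or 17.6%, against 8.65% of all genes tested. In the higher direction it was found for 5, or 4.2%, against 8.39% of all genes, and in either direction for 21.8% against 17%. The median log2 difference was -0.036, against -0.002 over all genes tested and -0.023 over genes above the 50th percentile of means. The lists were written with earlier results of these data known, so these shares are no independent evidence. No gene of the 9 lists was called in the late minus early comparison.

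The called gene was Saa3, an acute-phase serum amyloid and NF-kB target. It had 7.97, 7.36, 7.24 and 6.93 log2 in the heme pools of days 2, 4, 7 and 14, against 8.25, 8.26, 8.18, 8.38 and 8.36 in the control pools of days 0, 2, 4, 7 and 14. All heme pools lay below all control pools, and each later heme pool was lower than the one before, as for Peli1. Saa3 fell by 0.91 log2 (SE 0.16, limma adjusted p = 0.0398), and it was 1 of 25 tested genes on the list of other targets, with a list median of -0.08. With the day as a replicate block, which leaves out the control pool of day 0, its difference was -0.922 and the call was lost (adjusted p = 0.0827). Without that pool and without the block it was also -0.922 (limma adjusted p = 0.112). The call of Saa3 was lost in 8 of 9 fits without 1 pool (adjusted p up to 0.154), the exception being the heme pool of day 2 (0.00115).

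Upstream of NF-kB, 0 of 10 pattern receptors were called, with a median of -0.08. The lowest were Tlr1, a lipopeptide receptor partner of Tlr2 (-0.20 log2, limma adjusted p = 0.0956), and Tlr4, the lipopolysaccharide receptor (-0.16, limma adjusted p = 0.257), and the highest Nod2 and Tlr2 (0.05 and 0.02). Among 5 tested receptors of the ligands, 0 were called, between Il1rap, the shared subunit of the interleukin-1 receptor (-0.16), and Cxcr1 (0.14), and Cxcr2, Il18r1 and Il18rap lay below the filter. Of 16 kinases and adaptors 0 were called (median 0.00). Ikbkg, the regulatory subunit of the IkB kinase complex, was highest at 0.20 (limma adjusted p = 0.217), followed by the TNF receptor adaptor Tradd at 0.09, and the kinase Tbk1 and the adaptor Tab2 were lowest at -0.06 and -0.05.

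The 9 NF-kB subunits and IkB proteins had a median of -0.07 with 0 called. Rel and Relb, both subunits, were lowest at -0.19 and -0.14 (limma adjusted p = 0.218 and 0.28), and the inhibitors Nfkbib and Nfkbid highest at 0.13 and 0.10. Among 18 inhibitors and decoys, 0 were called (median 0.02). Socs3, a suppressor of cytokine signalling, stood at 0.26 (limma adjusted p = 0.431) and Il1rn, the interleukin-1 receptor antagonist, at 0.21 (limma adjusted p = 0.226), while the phosphatase Dusp1 stood at -0.17 and the deubiquitinase Cyld at -0.13.

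Of 12 genes that process IL-1 beta, IL-18 and tumour necrosis factor 0 were called (median -0.07). Gsdmd, the pore-forming gasdermin D through which IL-1 beta leaves cells, stood at -0.25 (limma adjusted p = 0.21) and the flagellin sensor Naip5 at -0.24, and Casp8 and the inflammasome adaptor Pycard at 0.13 and 0.09. The inflammasome sensor Nlrp3 lay below the filter. Other IL-1 and TNF family ligands had 0 of 6 called (median -0.12), with Tnfsf10, a death ligand, lowest at -0.40 (limma adjusted p = 0.148), then Il33 at -0.13, and Tnfsf14 and Ltb highest at 0.09 and -0.11. Among 18 other chemokines 0 were called (median -0.04). Ccl5 and Ccl6 were lowest at -0.36 and -0.35 (limma adjusted p = 0.247 and 0.272), and Ccl19 and Cxcl9 highest at 0.18 and 0.12. T and NK cell markers, a source of Ccl5, had pool means of 5.36 to 5.50 log2 in heme and 5.50 to 5.57 in control with 0 of 11 called, and their part in the Ccl5 values was not tested.

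**Figure D4:**
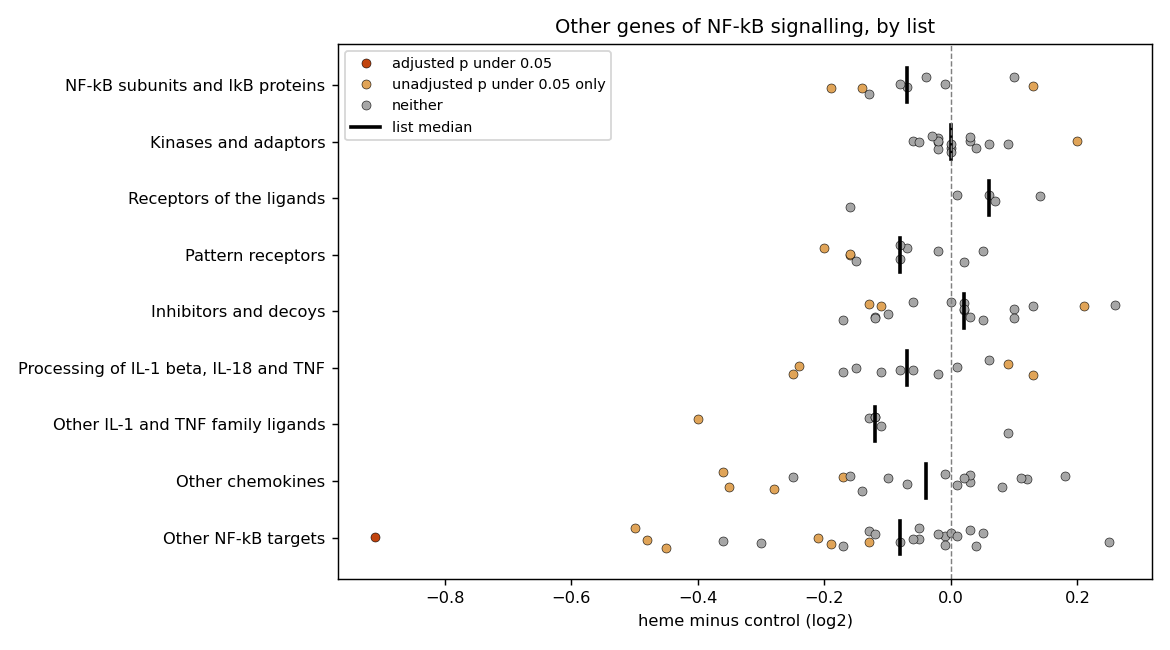
Log2 difference, heme minus control (horizontal axis), of other genes of NF-kB signalling in 9 lists (rows), with each point 1 gene coloured by its limma p and a black bar at the list median. Saa3 at -0.91 is the single gene with an adjusted p under 0.05, and list medians lie between -0.12 and 0.06.

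The genes with the most similar profiles over the 9 pools were looked up by Pearson correlation among all genes tested, as a description without a test. The points share their arrays and the order of days, and the highest of so many correlations is high by selection. For Peli1 they were Saa3 (r = 0.982), Nktr (0.98) and Bche (0.979). For Tnfaip3 they were Capn8 (r = 0.988), Arfgef3 (0.984) and Frrs1 (0.983), of which Arfgef3 lies on the same chromosome as Tnfaip3, with only Gm4922 and Perp between them among protein-coding genes. For Ccl20 they were Ypel2 (r = 0.959), C030016D13Rik (0.954) and Neurl4 (0.952), for Cxcl5 H2-Q10 (0.973), Rad18 (0.965) and Mrps7 (0.961), and for Cxcl1 Efhd2 (0.941), Sptbn5 (0.94) and Washc1 (0.938).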

How the data were processed

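The deposited table gives log2 expression by probeset for 1 array per RNA pool, computed by the authors with RMA per the submitters' processing notes, in a version that the sources used here do not state. Its median polish of the probes, after background correction and quantile normalization across arrays, can leave equal values in several pools. Precision is limited by how few arrays there are, and read depth does not apply. No batch is given in the labels. Symbols came from GEO's platform annotation (21789 probesets with 1 symbol, 1621 with several, 12146 unnamed here), and 21698 were matched by Entrez ID to RefSeq. Each gene was represented by its brightest probeset on average, and genes below the 25th percentile of means were left out. Linear models were fitted with limma 3.58.1 in R 4.3.3 (eBayes with an intensity trend), tested on simulated data, with Benjamini-Hochberg adjustment over 14953 genes. Tables were made with Python 3.11.15 and figures with matplotlib 3.10.9. The diet fit had 9 pools, late minus early 8 and the control slope 5. Labels share the day on diet but no animals. Deviations of same-day pools from their diet means had r = 0.658, 3.55e-05, 0.3 and 0.204 on days 2, 4, 7 and 14. Pools of unlike days had r from -0.475 to 0.396, so only on day 2 did same-day pools clearly deviate together. The day as a block is given where it changed a call. The members and lists were chosen with earlier results of these data known, Peli1's call among them, which is therefore no independent evidence. Named were all members, and of each list the genes called or else the 2 highest and 2 lowest, with similar profiles for the 4 members of widest range and for Peli1. S100a9 and the other tested neutrophil markers, Gp2 and a few genes below the filter were named after their values were seen. Alternatives changed the filter, the trend, the centring, the probeset rule, the block and the pools used.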

Additional observations from a re-analysis of the deposited data

Results flagged for a closer look

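In 20 groups of pools (10 genes in 2 diets) a single pool stood apart from the rest in 3, all of them control groups. The rule, Dixon's ratio of the gap to the range, flags about 1 group in 20 for normal values of 1 population. The pools of a group differ in day and can hold near-equal values, so that rate does not apply here. Cxcl2 was highest in the control pool of day 0, at 4.26 log2. Ccl20 was highest in the control pool of day 2, at 6.68 log2. Nfkbia was lowest in the control pool of day 4, at 8.57 log2.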

How the results depend on the processing

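Of 340 values of the tested members under alternatives, 313 kept their direction and their side of the threshold, 12 kept the direction of Peli1 without its call, and 15 turned round, none of these with an adjusted p under 0.05 in limma. Peli1 stayed lower in heme in every setting of the diet comparison. Its call was kept with a filter at the 50th percentile, median centring, the mean of all probesets and without both pools of day 2 (adjusted p = 0.0366, 0.0293, 0.0448 and 0.0221). It was lost without a filter (0.0601), without the trend (0.0834), with the day as a replicate block (0.0923) and without both pools of day 7 (0.307). The number of genes called between the diets was 100, 30 to 251 when 1 pool was left out, lowest without the control pool of day 4 and highest without the heme pool of day 2, and 0 without both pools of day 7 (1567 at an unadjusted p under 0.05). It was 77 with the replicate block, which leaves out the control pool of day 0, and 49 without that pool and without the block. In the block fit no other call of a member changed. Slopes in place of late against early days called 114 genes. Leaving out 1 pool, the diet difference ranged from -0.0859 to 0.0965 for Cxcl1 and from -0.0306 to 0.0815 for Il18, and late minus early from -0.185 to 0.437 for Ccl20. The control slope ranged from -0.0567 to 0.055 for Il18, -0.0752 to 0.0136 for Cxcl1, -0.0326 to 0.0291 for Nfkbia and -0.33 to 0.0083 for Ccl20. Without both pools of day 7, Il18 had -0.0427 between diets and -0.0496 for late minus early, and without both of day 2 Ccl20 had -0.0253 for late minus early. A slope on day gave 0.00231 for Il18, 0.00208 for Nfkbia and 0.000175 for Peli1. The causes were not tested. Il1b, Cxcl2 and Cxcl5 rest on dim signals.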
